A study of Homo sapiens with 8 samples.

Results

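Transcript models that join annotated splice sites in an order absent from the reference annotation (the class named NIC, here called new combinations) made up 147175 of the 506946 models listed for direct RNA sequencing of 3 human cell lines. They were taken by the class that TALON, a program that assigns long reads to transcript models, gave to each model. Of these, 76506 had at least 1 read in the 8 libraries, against 20795 known models, 75487 incomplete splice matches and 54981 models with an unannotated splice site. The other 70669 new combinations had no read.

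Splicing removes introns by pairing a donor site with an acceptor site, and skipping an exon or keeping an intron changes which sites are paired. A new combination therefore uses donors and acceptors that are each annotated somewhere in the gene, while the whole chain is not. Long reads that run through a transcript show such chains directly. Reads with missing ends fall in another class, the incomplete splice matches, when the remaining chain is part of a known one.

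Direct RNA sequencing passes native RNA through a nanopore without cDNA copying. GM12878, a B-lymphoblastoid line, and HepG2, a hepatocellular carcinoma line, each had 3 libraries, and K562, a myelogenous leukaemia line, had 2; no line carried a treatment in the labels. The labels give total RNA as the material and put K562 under the same lymphoblastoid cell type as GM12878. Over 7 erythroid and K562 markers, fetal and embryonic globins among them, K562 libraries had 30600 to 37800 CPM (reads scaled to the library's total) and all 7 were at 0 reads in GM12878. Of 7 B cell markers 5 were at 0 reads in K562 and 4 in HepG2, and of 7 hepatocyte markers, at 73800 to 84900 CPM in HepG2, 7 were at 0 reads in K562 and 6 in GM12878. Nothing in the labels says that a line's libraries are different cultures, and each p-value below refers to the spread of these 8 libraries, which may be technical. Libraries held 70374 to 461497 reads, of which 12030 to 79023 belonged to new combinations.

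The tables give exon number and length of a new combination but no coordinates of its splice sites, so the joins below are those of annotated transcripts of the same genes. Which annotated joins a new combination holds is not known from the tables. They come from GENCODE 29 on GRCh38, are written 5′ to 3′ on the gene's strand, and carry in capitals the 2 bases on each side of the join. The first set is shown because RPS2, a protein of the small ribosomal subunit, held more new-combination reads than any other gene. RPS2-201, on the minus strand of chromosome 16, has 7 exons and 985 bases. The 5 joins shown have 15 bases of coding sequence on each side. Exon 2 ends at 1964449 and exon 7 starts at 1962270.
RPS2 exons 2 and 3: gccgaggataaggAGTGgatgcccgtcacc
RPS2 exons 3 and 4: tccctgcctattaAGGAatcagagatcatt
RPS2 exons 4 and 5: cgcaccaggttcaAGGCatttgttgctatc
RPS2 exons 5 and 6: actgtcccttgcaAGGTgacaggccgctgc
RPS2 exons 6 and 7: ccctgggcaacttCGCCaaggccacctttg
The introns removed at these joins are 83, 1019, 239, 79 and 226 bases long, in that order. RPS2-201 had 3 reads in all 8 libraries, and the 6-exon new combination of the same gene had 8937.

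The second set is shown because it is an annotated gap that is no intron. OAZ1 and OAZ2 encode ornithine decarboxylase antizymes, inhibitors of polyamine synthesis that are translated through a programmed ribosomal frameshift, and the annotated transcripts OAZ1-202 and OAZ2-201 leave out 1 base of the mRNA between exons 2 and 3. That base is at position 2271443 of chromosome 19 in OAZ1 and at position 64691515 of chromosome 15 in OAZ2. The lines below give the annotated join and then the stretch of a transcript that crosses the place without a gap (OAZ1-201 and OAZ2-202), with the left-out base in capitals.
OAZ1 annotated join: ctcggtggtgctCCGAtgcccctcaccc
OAZ1 without the gap: ctcggtggtgctccTgatgcccctcaccc
OAZ2 annotated join: ctctgtggtgctCCGAtgcccctcaccc
OAZ2 without the gap: ctctgtggtgctccTgatgcccctcaccc
The annotation counts OAZ1-202 as 6 exons and 969 bases. The leading new combination of OAZ1 had 5 exons, 891 bases and 1621 reads, and new combinations together were 77.1% of the 2435 reads of OAZ1 and 59.4% of the 96 reads of OAZ2.

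New combinations held a near constant part of each library. Their share of all reads was 16.74%, 17.77% and 17.09% in GM12878, 17.12%, 17.21% and 16.85% in HepG2, and 17.76% and 17.65% in K562. The means were 17.2% ± 0.524 (SD, n = 3), 17.06% ± 0.186 (n = 3) and 17.71% ± 0.0768 (n = 2), and GM12878 overlapped both other lines. An exact permutation test over all 560 assignments of libraries to lines, on the sum of squares between lines, gave a p of 0.243. After Benjamini-Hochberg adjustment over 5 such tests it was 0.282, and the smallest p the design allows is 0.00357. The limits of this test are set by 8 libraries, and a missed threshold does not show that the shares are equal.

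Against known spliced reads alone the lines stood further apart. New combinations were 29.3%, 30.12% and 30.04% of known plus new-combination spliced reads in GM12878, 30.63%, 33.16% and 31.6% in HepG2, and 28.88% and 28.47% in K562. The 3 lines did not overlap on this measure, with means of 29.82% ± 0.457, 31.8% ± 1.28 and 28.68% ± 0.29 (SD, n = 3, 3 and 2). The same exact permutation test gave p = 0.0179, which did not pass after adjustment (0.0893). HepG2 also had the largest share of reads in incomplete splice matches, which this denominator leaves out, with 24.8% to 27% against 17.7% to 18.5% in the other 5 libraries; the part of this in the result was not tested. Over 261 genes with at least 20 known or new-combination reads in every library, each gene given the same weight in all libraries, the means were 28.09% ± 0.918, 29.32% ± 1.57 and 27.02% ± 1.6, and the exact permutation p was 0.282.

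**Figure D1:**
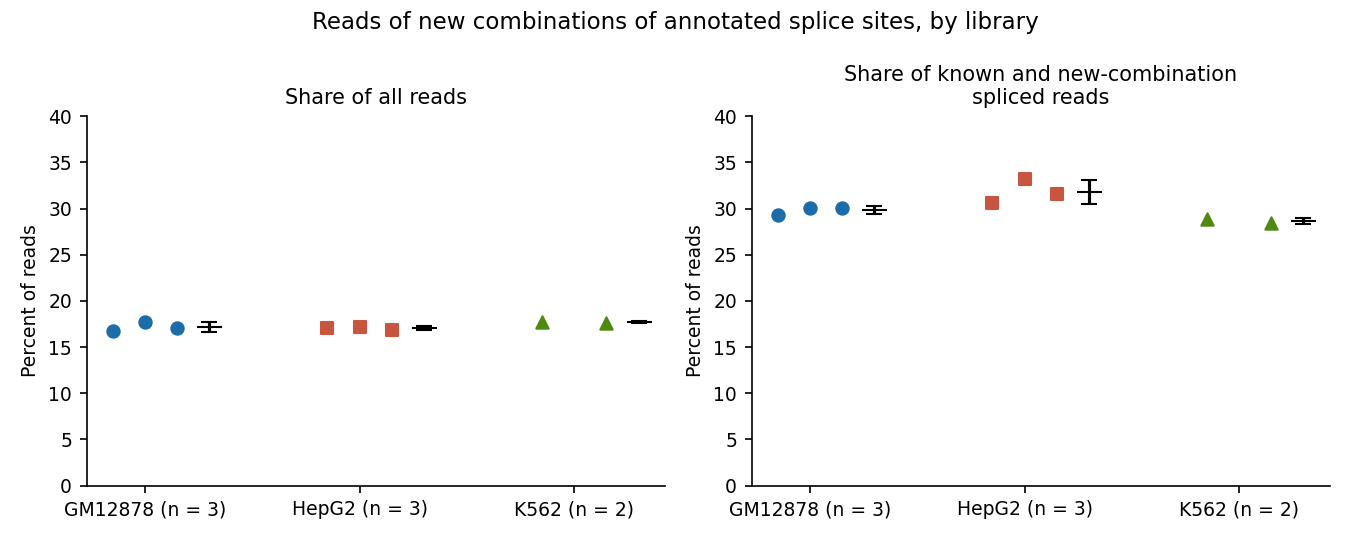
Share of reads in new combinations by library (points), with the mean ± SD of each line beside them, as a percent of all reads (left) and of known plus new-combination spliced reads (right). On the left all 8 libraries lie between 16.74% and 17.77%; on the right HepG2 lies highest, from 30.63% to 33.16%.

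The mean exon number of new-combination reads was 6.459 ± 0.19 in GM12878, 6.225 ± 0.156 in HepG2 and 6.522 ± 0.102 in K562, with an exact permutation p of 0.171. At the depth of the shallowest library, 70374 reads, the expected number of new combinations with a read was 5804 ± 228, 5704 ± 103 and 6269 ± 423, with an exact permutation p of 0.1. Neither passed after adjustment over the 5 tests (0.282 and 0.25).

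The share of new combinations was higher among models with many exons. Averaged over libraries it was 19.5% ± 2.41 of known plus new-combination reads at 2 exons (SD, n = 8), 27.3% ± 1.18 at 4, 31.2% ± 2.18 at 7 to 9, 40.8% ± 2.1 at 10 to 14 and 47.5% ± 7.4 at 15 or more. Models of 10 or more exons had a share of 42.35%, against 25.82% for models of 2 to 4 exons, a difference of 16.53 ± 3.58 percentage points that was above 0 in 8 of 8 libraries. The exact sign-flip permutation test gave p = 0.00781, two-sided, the smallest that sign flips of 8 libraries allow. Incomplete splice matches are left out of this denominator too, and their part in the rise with exon number was not tested. At 15 or more exons HepG2 had 37.7%, 36.2% and 44.2%, against 49.8% to 56.8% in the other 5 libraries. The known reads of this bin include ALB-201 (15 exons, 5276 reads) and AFP-202 (15 exons, 2097 reads), of genes read in HepG2 alone. The part of these 2 transcripts in the lower HepG2 share was not tested. At 10 to 14 exons the HepG2 libraries had 41.9%, 44.8% and 39.9%, so that replicates 1 and 2 were lower at 15 or more and replicate 3 was higher, while the other 5 libraries were each higher. When new combinations had to have a read in at least 2 libraries the difference fell to 5.046 points, still above 0 by the same test (exact p = 0.00781). Known models were not limited in this way, so the 2 classes were not filtered alike.

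Long new combinations were also rare ones. A new combination of 3 exons had 8.8 reads on average and one of 15 or more exons 1.58, while known models had 46.5 and 12.7. Of the 76506 new combinations with a read, 26581 (34.74%) had 10 or more exons, and the largest had 60.

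**Figure D2:**
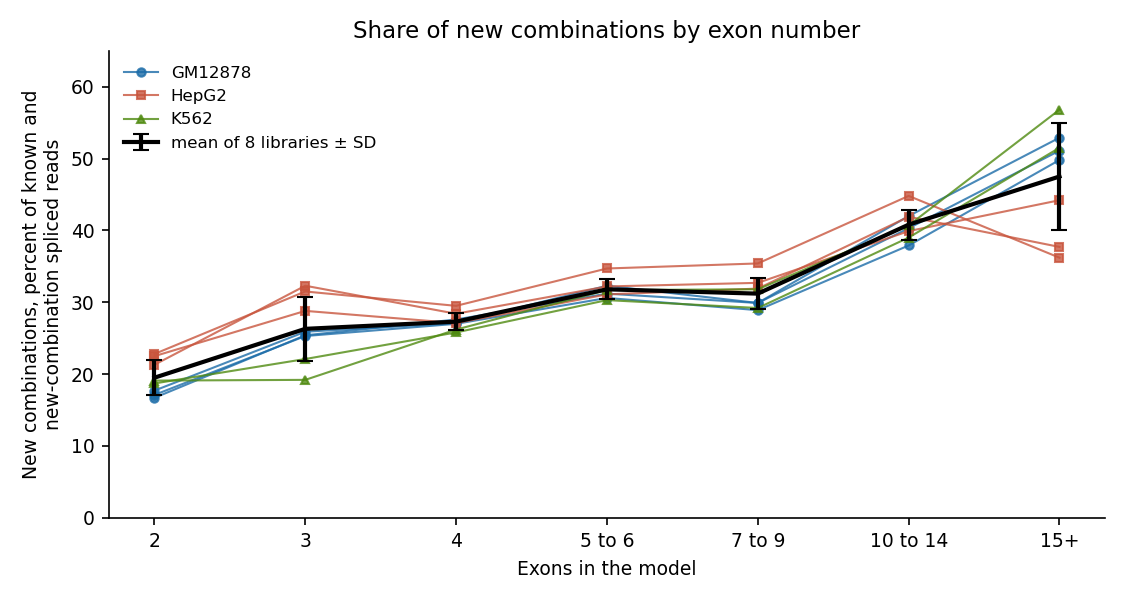
New combinations as a percent of known plus new-combination spliced reads (vertical axis), by exon number of the model (horizontal axis), with 1 line per library coloured by cell line and the mean ± SD of the 8 libraries in black. The mean rises from 19.5% at 2 exons to 47.5% at 15 or more, where HepG2 lies below the other lines. Known reads at 15 or more exons include those of ALB-201 and AFP-202, of genes read in HepG2 alone.

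Most new combinations had a single read, and a few had many. There were 329564 new-combination reads. A single read supported 54615 models (71.39% of those with a read), and within a library 74.61% to 80.39% of the models present had 1 read. At the other end, 270 models with at least 100 reads held 41.82% of the reads. By annotated gene, 76321 models fell in 9004 of the 17404 genes with a read, and 185 models with 288 reads fell in loci absent from the annotation.

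Recurrence set the class between known models and models with an unannotated splice site. New combinations were seen in 1 library for 57027 models, which is 74.5% of the models and 18.2% of the reads, and in all 8 libraries for 801 models, which is 1.05% of the models and 43.3% of the reads. Known spliced models had 10.3% of models and 71.6% of reads in all 8 libraries, and models with an unannotated site 0.589% and 25.6%. The 801 recurrent models belonged to 431 genes, and 250 of them to ribosomal protein genes. Over lines, 5013 new combinations had reads in all 3, 8968 in 2 and 62525 in 1, holding 57.7%, 12% and 30.4% of the reads.

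**Figure D3:**
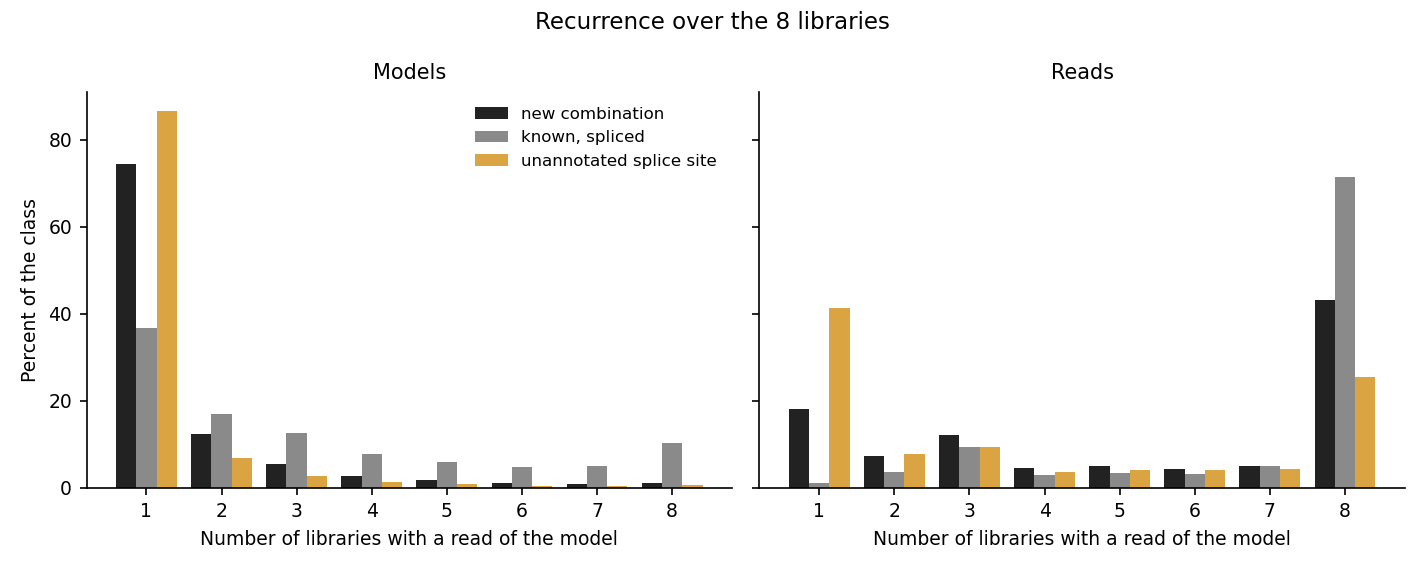
Percent of models (left) and of reads (right) in each class by the number of libraries in which a model had a read, for new combinations, known spliced models and models with an unannotated splice site. New combinations had 74.5% of their models in 1 library and 43.3% of their reads in models seen in all 8.

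How often a model came back depended on its reads in the first library. With the second library taken at 70374 reads, a new combination with 1 read was expected again in a median of 7.53% of cases over 14 ordered pairs of libraries within a line and 6.01% over 42 ordered pairs from different lines. With 5 to 9 reads the medians were 73.9% and 55.1%, and with 10 to 19 reads 94.5% and 77.3%. Known spliced models with 1 read came back more often, in 19.7% and 17.4%, and models with an unannotated site less often, in 3.96% and 3.34%. At 10 to 19 reads the same-line medians were 94.9% for known spliced models and 94.8% for those with an unannotated site, next to the 94.5% of new combinations. The pairs share libraries, so these values are a description without a test.

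Ribosomal proteins, the structural proteins of the ribosome, held the largest block of new-combination reads among the gene lists used. Of 80 ribosomal protein genes, 79 had such reads, 107044 in all, which is 32.5% of new-combination reads in annotated genes against 20.3% of all reads there. By library, 26% to 29.5% of the reads of these genes were new combinations. The median gene was at 15% and 15 of 80 were at 50% or more, next to a median of 9.09% over the 8133 genes with at least 20 reads, of which 325 reached 50% and 1592 had none. Ribosomal protein genes have many processed pseudogenes, and where reads could be split between copies their values are uncertain.

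RPS2 led in reads. Of its 11680 reads, 92.4% were new combinations, between 90.1% and 93.1% in every library, and 82.8% of those were 1 model of 6 exons and 1116 bases. That model had 762, 793 and 322 reads in GM12878, 1694, 883 and 1086 in HepG2, and 767 and 2630 in K562, or 4700 ± 281, 3450 ± 280 and 6880 ± 2140 CPM. The 2 K562 libraries differed most from each other, and GM12878 lay above HepG2. The most-read known model of the gene, RPS2-213 with 5 exons, had 17 reads in all.

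RPS29, a small-subunit protein, had the highest share among genes with at least 50 reads, 95% of 2768 reads, from 88.3% in GM12878 replicate 3 to 97.9% in K562 replicate 2. Its leading new combination had 3 exons, 291 bases and 2627 reads. GENCODE's RPS29-201 has the same exon number and 296 bases, and the shortest known model of the tables was 300 bases long. An annotated join of RPS29-201 is shown because the exon number and length of this transcript match those of the new combination. It is the join of exons 1 and 2, the one with 15 bases of coding sequence on each side. Exon 1 ends at 49586285 and exon 2 starts at 49586049 on the minus strand of chromosome 14.
RPS29 exons 1 and 2: gggttctcgctctTGTCgtgtctgttcaaa
Such a match of exon number and length within 20 bases to a GENCODE transcript of the gene was found for 8557 new combinations (11.2% of models, 10.9% of reads). For 17 of them, with 2660 reads, that transcript was shorter than 300 bases. For 5856, with 21971 reads, it was itself listed as a known model, apart from the new combination. A match of exon number and length therefore does not show that 2 chains are the same.

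Further ribosomal protein genes had a single dominant new combination, set here beside the gene's most-read known transcript. The RPS15A model had 4 exons, 452 bases and 5269 reads, while RPS15A-201, with 5 exons and 2203 bases, had 320. The RPL37 model had 3 exons and 4257 reads, against 4 exons and 861 reads for RPL37-201. RPL19 was less one-sided, with 5 exons, 739 bases and 2928 reads for the new combination and 6 exons, 737 bases and 1359 reads for RPL19-201. RPS27A, which encodes a ubiquitin fused to a ribosomal protein, had 2869 reads on a new combination of 5 exons and 638 bases. RPS27A-203, also with 5 exons but 796 bases long, had 268.

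Some of these genes, RPL26 and RPL7A among them, had shares that did not overlap between lines without passing the usage test. How many of all genes tested do so is not given here, so no line difference is read from them. RPL26 was at 81%, 80.4% and 81.8% in GM12878 and at 68% to 71.3% in the other 5 libraries, a shift of -11.2 percentage points in HepG2 with an adjusted p of 0.998 (edgeR diffSpliceDGE, Benjamini-Hochberg). RPL7A was at 58.6% to 63.6% in HepG2 and 71.1% to 77.8% elsewhere, with an adjusted p of 0.95 for HepG2 against GM12878 in the same edgeR test.

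**Figure D4:**
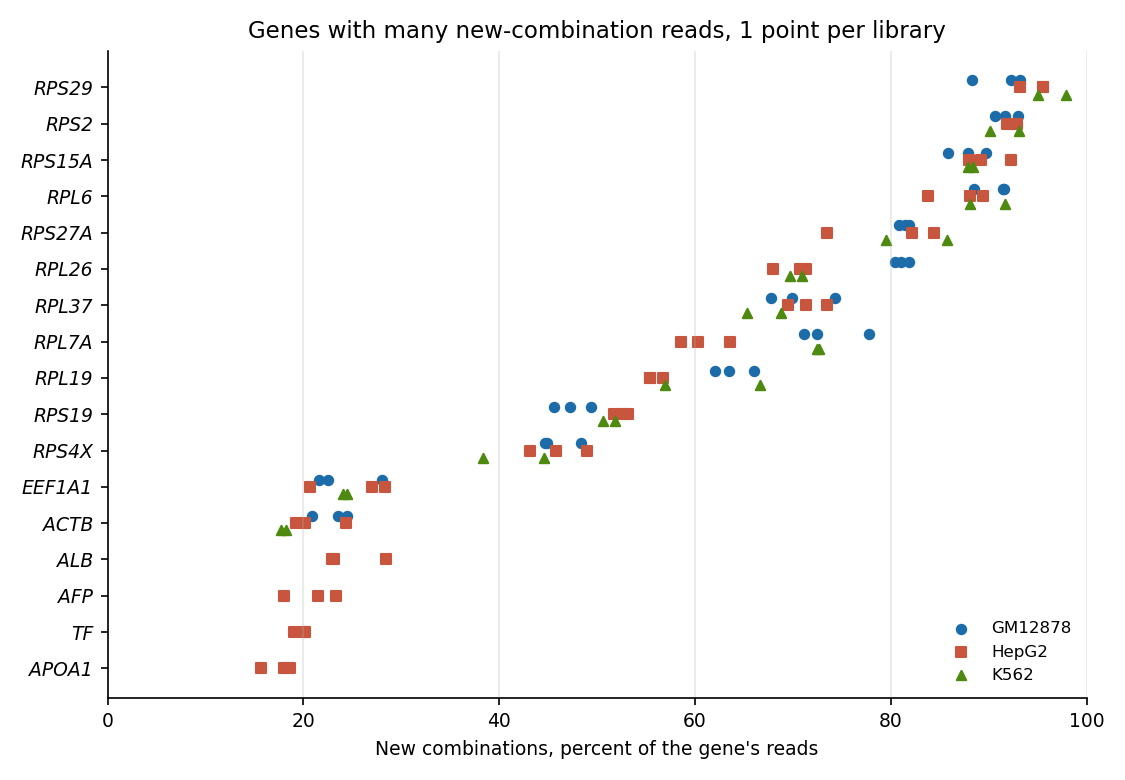
New combinations as a percent of each gene's reads (horizontal axis) for genes with many such reads, with 1 point per library coloured by cell line; ALB, AFP, TF and APOA1 have points in HepG2 alone. RPS29 and RPS2 lie at 88.3% or more in every library, while EEF1A1, ACTB and the secreted liver proteins lie below 30%.

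Other gene lists had medians on both sides of the 15% of ribosomal proteins, and these differences were not tested. RNA-binding hnRNP proteins, which package and process pre-mRNA, had the highest median of the lists, 27.6% over 25 genes, with HNRNPA1 at 46.4% of 2474 reads and RALY at 56.4% of 706. SR proteins and other splicing regulators were at a median of 13.4% over 31 genes, none at 50% or more, and nonsense-mediated decay factors, which remove mRNAs with premature stops, at 8.57% over 15. Translation factors were at 17.2%, secreted liver proteins and MHC class I genes at 15.5% each, glycolysis enzymes at 14.9%, RNA host genes and long noncoding RNAs at 14.7%, B cell and MHC class II genes at 12.9%, proteasome subunits at 11.2% and mitochondrial ribosomal proteins at 7.01%. PKM, the pyruvate kinase gene whose exons are alternatively spliced, was at 58.7% of 2046 reads, and its 3 lines did not pass the usage test (edgeR adjusted p 0.998, 1.0 and 1.0). Globins and erythroid genes had the lowest median, 4.65% over 19 genes, although HBG1, a fetal globin with a near-identical copy in HBG2, gave 332 new-combination reads in K562.

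In HepG2 the secreted liver proteins were a further block. The 28 genes of this list gave 12.2%, 11.8% and 11.6% of HepG2 new-combination reads, 0 in GM12878, and 0.0591% and 0.137% in K562. ALB, serum albumin, had 6990 such reads on 360 models, 22.9%, 23.1% and 28.4% of its reads. Its leading model had 3 exons and 590 bases, while ALB-201, its most-read known transcript, has 15 exons and 2263 bases. AFP, alpha-fetoprotein, was at 18%, 21.5% and 23.3%, with 63.9% of these reads on 1 model of 4 exons and 560 bases. The protease inhibitor A2M had the most distinct new combinations of any gene, 706 models for 1496 reads, with 6.68% on the leading one. TRIM28, a transcriptional corepressor, spread 609 of its 827 reads over 266 models, and was between 65% and 81% in every library.

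MHC genes present peptides on the cell surface and are highly polymorphic, and their paralogues are similar in sequence, so assignment between them is uncertain. Class I genes were 34.2% to 36.7% new combinations in GM12878, 29.3% to 32.2% in HepG2 and 13.1% to 16.8% in K562, where HLA-B had 0 reads. HLA-DPA1, a class II chain, was at 86.1%, 82% and 70.3% in GM12878 and had no reads in the other lines. Among noncoding host genes of small nucleolar RNAs, SNHG5 was at 18.5%, SNHG7 at 87.6%, and GAS5 at 75.3%, with its 171 new-combination reads on 115 models.

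New combinations mostly had fewer exons than the known transcript with the most reads in the gene. Of 318043 new-combination reads in genes with a known spliced read, 36.1% had 1 exon fewer (34.1% to 40.8% by library), 33.1% had at least 2 fewer, 16.6% had the same number, and 7.08% and 7.03% had 1 or more than 1 more. Reads of models with an unannotated splice site had the same number in 55.6% and 1 fewer in 15.7%. Genes in which some GENCODE transcript has a gap of at most 9 bases between exons, as in OAZ1 and OAZ2 above, numbered 492. They held 2346 new combinations (3.07%) with 16767 reads, 5.09% of the total. The share of all reads in these genes is not given here, so 5.09% does not show whether they hold more new combinations than other genes. Among the genes with such a gap are selenoproteins with a 3-base gap in a transcript. GPX4, which reduces lipid peroxides, had 64.2% of 1681 reads in new combinations, and GPX3 had 17.3% of 284. GPX1 had 0.148% of 675 and GPX2 0.104% of 1917. Other selenoproteins with a 3-base gap ran from 6.74% of 282 reads in SELENOH down to 0% of 295 in MSRB1. A gap in 1 transcript of a gene does not tell which of its new combinations cross it, and this was not tested.

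Levels of single new combinations were compared between lines by edgeR's quasi-likelihood test on the counts of 3883 models abundant enough in the table, 532 of them new combinations, with Benjamini-Hochberg adjustment over all 3883. A model was called at an adjusted p under 0.05 and a log2 change of at least 1. Most new combinations with a read were too sparse for it, and a model can pass the filter through the line where it is high. In bulk RNA, fewer cells with a transcript and less of it per cell cannot be told apart.

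HepG2 against GM12878 called 247 of the 532, or 46.4% against 50.8% of all models tested. Of these, 163 were higher in HepG2, where the background was 31.7%, and 84 in GM12878, where it was 19.2%. K562 against GM12878 called 92, or 17.3% against 20.8% of all models, with 39 higher in K562 (background 9.35%) and 53 in GM12878 (background 11.4%). K562 against HepG2 called 197, or 37% against 43.8%, with 47 higher in K562 (background 14.1%) and 150 in HepG2 (background 29.7%). Without K562 replicate 1 the counts were 387, 173 and 294, without K562 replicate 2 the K562 count against GM12878 was 54, and without HepG2 replicate 2 the K562 count against HepG2 was 126. In each comparison the share called was near or below the background. Of the calls, 185, 69 and 154 had the whole gene called in the same direction, 62, 23 and 43 had a gene that was not called, and 0 had a gene called in the opposite direction.

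The largest line differences followed tissue genes. The leading ALB model had 818, 452 and 1147 reads in HepG2 and 0 in the other 5 libraries, 2300 ± 876 CPM, which is at least 305-fold higher than the limit that 0 reads allow in GM12878 (3 counts over the line, 7.53 CPM). The AFP model had 784, 422 and 721 reads, at least 242-fold, and that of APOA1, the main protein of HDL, 711, 367 and 500, at least 197-fold. All 3 were at 0 in every GM12878 and K562 library, and each passed with an adjusted p of 5.7455e-13 or less against GM12878 (edgeR, Benjamini-Hochberg).

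Higher in GM12878 than in HepG2 were models of GSTP1, a glutathione transferase, with 116, 153 and 52 reads, at least 278-fold, HLA-DPA1 with 71, 104 and 43, at least 196-fold, and IGHM, the immunoglobulin mu chain, with 53, 95 and 40, at least 171-fold. The HepG2 libraries were at 0 for each. K562 also had the GSTP1 transcript, with 150 and 350 reads of the same 5-exon model. Against GM12878, the largest fold bound in K562 was that of the HBG1 model, with 117 and 210 reads in K562 and 0 in the other 6 libraries, at least 98.8-fold. Against HepG2 the GSTP1 model had a larger one, at least 381-fold, with HBG1 at 262-fold or more. K562 lacked reads of the HLA-B model of 7 exons, which had 91, 115 and 33 in GM12878 and 3, 1 and 1 in HepG2.

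Among models called where the gene was not, a group chosen after the calls were seen, PSMB2 stood out by its counts. PSMB2 encodes a beta subunit of the proteasome core. A new combination of 5 exons and 1023 bases had 12 and 22 reads in K562 and 0 in the 6 other libraries, although the gene had 57, 77 and 24 reads in GM12878, 109, 43 and 104 in HepG2, and 94 and 154 in K562. Its level of 77.1 ± 9.78 CPM in K562 was at least 10.2-fold above the limit for GM12878 and at least 27.1-fold above that for HepG2 (edgeR adjusted p 8.6226e-05 and 1.6228e-06). The gene's own log2 changes of 0.52 and 0.85 did not reach 1 (edgeR adjusted p 0.10796 and 0.0027058). Against HepG2 the gene thus missed only the threshold on the log2 change. The joins of PSMB2-201, the gene's known transcript of 6 exons and 280 reads, are shown because a model of 5 exons cannot hold all 5 of them; the gene lies at chr1:35599544-35641844 on the minus strand.
PSMB2 exons 1 and 2: tccagatgaaggaCGATcatgacaagatgt
PSMB2 exons 2 and 3: ataagatgcgaaaTGGAtatgaattgtctc
PSMB2 exons 3 and 4: tgtcttcggagtcGGACcccatatcatgtg
PSMB2 exons 4 and 5: gatactacacaccGACTatctcacgtgaga
PSMB2 exons 5 and 6: aaatgtctggaggAGCTccagaaacgcttc

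A model of RPL10, a large-subunit protein, with 5 exons and 564 bases had 17 and 57 reads in K562, 1, 1 and 0 in GM12878, and 3, 3 and 1 in HepG2. The ratio of its pooled levels was 32.3 over GM12878, with a 95% counting interval of 8.63 to 272, and 24.5 over HepG2 (11.3 to 63). The whole gene had log2 changes of 0.78 and 0.29 (edgeR adjusted p 0.0047025 and 0.26716), so against GM12878 it missed only the threshold on the log2 change. The model of PRDX1, a peroxide-reducing enzyme, had 24, 11 and 17 reads in HepG2 and 0 and 1 in K562, a ratio of 22.5 (3.86 to 904), and the gene was also lower in K562, by a log2 change of -0.99 that missed the threshold of 1. Both models passed the edgeR test with adjusted p-values of 2.6833e-06, 1.6885e-07 and 9.5236e-05 in the order given.

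Within genes, the share of new combinations as a class passed the test between lines in 1 gene, LIME1. edgeR's diffSpliceDGE, on reads summed by gene and class, called it in HepG2 against GM12878 out of 2335 genes tested for new combinations, none of 2228 in K562 against GM12878, and none of 2495 in K562 against HepG2. At an unadjusted p under 0.05 there were 99, 37 and 74. As a share of the genes tested, each was below the 0.05 that no difference would give on average. A missed threshold with 2 or 3 libraries a line does not show equal shares: ICAM3, at 88.2% of 34 reads in HepG2 and 24.8% of 109 in GM12878, missed it with an edgeR adjusted p of 0.0597. Over all classes, 0.222%, 0.0542% and 0.0161% of gene and class pairs were called. LIME1, an adaptor of lymphocyte receptor signalling at chr20:63736283-63739103 on the plus strand, was at 35.7%, 17.2% and 20% new combinations in GM12878 and at 1.17%, 0% and 0% in HepG2. In HepG2 these were 0.549% of 364 reads and in GM12878 22.9% of 48 (edgeR adjusted p 5.0858e-05), and without GM12878 replicate 1 or 2 the row had too few reads for the test.

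The same test on single models, added after these results were seen, called 4, 2 and 3 new combinations of 2763, 2710 and 2842 tested, next to 0.35%, 0.159% and 0.128% of all models. For PSMB2 this test used the reads already described above, and the model reached the minimum of 10 reads through K562 alone. Its p-values here are therefore not separate support. PSMB2 passed in both comparisons of K562: its 5-exon model was 12.8% and 14.3% of the gene's reads in K562 and 0% elsewhere (edgeR adjusted p 0.0018417 against GM12878 and 2.4139e-05 against HepG2). Without GM12878 replicate 1 or 2 the first of these did not pass (edgeR adjusted p 0.083 and 0.123), and the second passed without each library in turn.

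ICAM3, a leukocyte adhesion molecule, had a 3-exon model at 9.68%, 3.51% and 0% of its reads in GM12878, 62.5%, 33.3% and 44.4% in HepG2, and 85.7% and 62.5% in K562. GM12878 lay below both other lines, on 7 to 57 gene reads per library. It passed against both lines (edgeR adjusted p 0.031963 for HepG2 and 0.022003 for K562). Against HepG2 the call was lost when any GM12878 library, or HepG2 replicate 1 or 2, was left out (edgeR adjusted p 0.0545 to 0.446). Against K562 it was lost when any GM12878 library was left out (0.0672 to 0.37, edgeR adjusted p), and leaving out a K562 library left too few reads for the test. LMNA, the gene of the nuclear lamins A and C, had a 10-exon model at 38.1%, 42.6% and 35% in GM12878 and 14.6%, 6.74% and 14.6% in HepG2 (edgeR adjusted p 0.038497). That call was lost when any library of either line was left out (edgeR adjusted p 0.058 to 0.357).

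**Figure D5:**
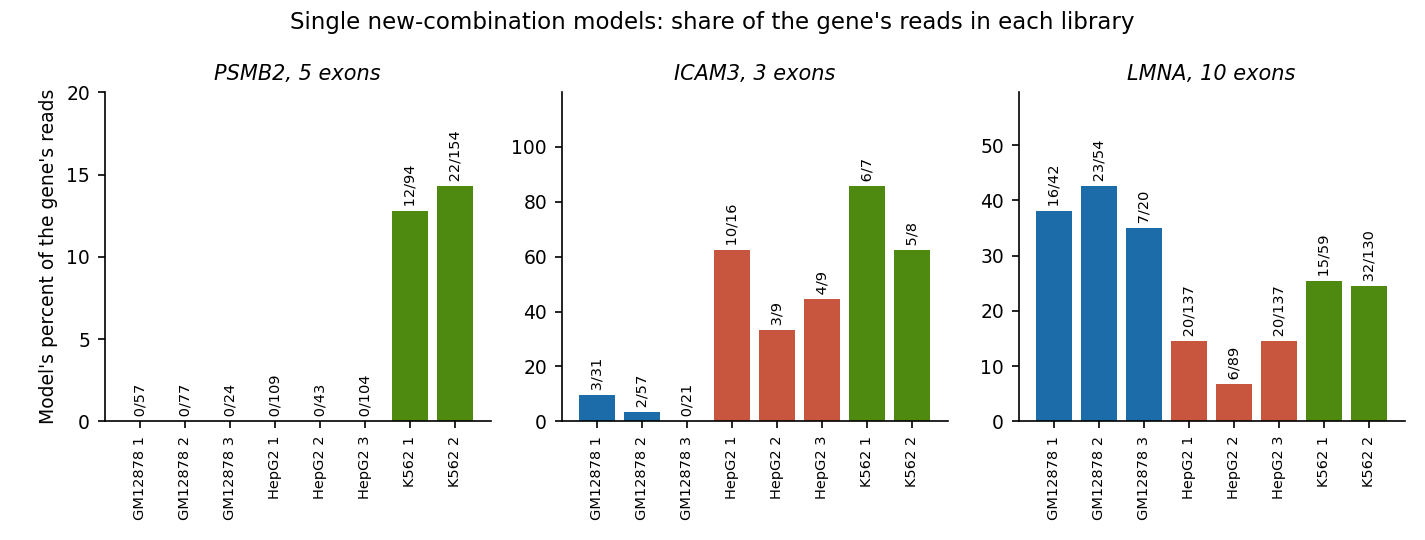
Share of the gene's reads (vertical axis, percent, a scale per panel) on 1 new combination of PSMB2, ICAM3 and LMNA in each library, with the reads of the model over those of the gene above each bar. The PSMB2 model has reads in the 2 K562 libraries alone, 12 of 94 and 22 of 154.

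Further single models were called in SLC16A3 for HepG2 against GM12878 and in NAA38 and UBA1 for K562 against HepG2, each on few reads. SLC16A3 had 16 gene reads in GM12878, 4 of them on the model. UBA1 had 8 of 49 reads in K562 replicate 2 and 0 of 20 in replicate 1, and NAA38 2 of 11 and 7 of 17.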

How the data were processed

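Native RNA of 3 lines was sequenced on nanopores. Per the submitters' processing notes, minimap2 and build hg38 were used, and versions are not given in the sources used here. The deposited TALON tables hold read counts per transcript model, not normalized, per the file headers. The deposited tables add exon number and length, values of other kinds. All 35496 known models matched GENCODE 29 on GRCh38 by identifier, and 0 columns of other samples were present.

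Members were the rows of class NIC. The members and the gene lists were chosen with earlier results of these data known, as were the rules for named genes. Those rules took, per line, the 12 genes and 8 models with the most new-combination reads, the genes of highest share with at least 50 reads, the 3 leading genes per list, and up to 6 called models per direction with libraries that do not overlap. Models in genes not called, single-model shares, and A2M, TRIM28, OAZ1, OAZ2 and the selenoprotein genes were chosen after their values were seen.

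The test of model counts was edgeR 4.0.16 in R 4.3.3 (glmQLFit, glmQLFTest, TMM factors, models kept by filterByExpr), in 1 fit over 8 libraries. Printed CPM are per total reads. Usage within genes was tested by diffSpliceDGE. It took rows of 10 or more reads and genes whose reads reached 10 in every line compared, called at an adjusted p under 0.05 and a shift of 10 percentage points. Shares were compared by exact permutation with SciPy 1.17.1. Limits from 0 reads (3 counts over a line; 7.53, 2.84 and 6.57 CPM) and 95% intervals cover counting error only.

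Libraries of the same line differed by more than sampling noise over new combinations (chi-square over degrees of freedom of 1.14 to 2.44), and none was counted as a repeat. Scripts were tested on simulated data. Alternatives were DESeq2 1.42.0, its size factors, no filter, fewer classes, a replicate block, stricter minimums and each library left out. Some named genes are not reported here.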

Additional observations from a re-analysis of the deposited data

How the results depend on the processing

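Counts of called new combinations moved most with the library left out. They ranged from 171 to 387 for HepG2 against GM12878 (247 with all libraries), 54 to 173 for K562 against GM12878 (92) and 126 to 294 for K562 against HepG2 (197). The counts rose to 387, 173 and 294 without K562 replicate 1 and fell to 54 without K562 replicate 2, to 171 without HepG2 replicate 1 and to 126 without HepG2 replicate 2. Leaving out libraries changes how many models are tested. Without a low-count filter HepG2 against GM12878 gave 379, and the DESeq2 Wald test gave 54 for K562 against GM12878; the cause was not tested. The 54 were all among the 92. For the models named by the rule, 460 of 464 alternatives kept the call and none reversed; the 4 exceptions were AC245297.1 and LINC01287 in K562 by DESeq2, with log2 changes of 6.271 and 6.2 against GM12878. Among 12 further results for models of genes not called, 126 of 141 alternatives kept the call. The totals of 464 and 141 leave out alternatives in which the model was not tested. Among these was the RPL12 model in HepG2 against GM12878 with any HepG2 library left out.

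For the class share within genes, HepG2 against GM12878 gave 0 with rows of at least 30 reads and 0 with known and new-combination reads alone, 2 with DESeq2 size factors, and 0 to 3 with a library left out. K562 against GM12878 gave 0 with each library left out, and K562 against HepG2 gave 2 with known and new-combination reads alone and 0 to 1 with a library left out. With single models as units, added after seeing the data, the counts were 4, 2 and 3. With at least 30 reads per model they were 1, 2 and 1.

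The range of the means over lines in the share of all reads, K562 minus HepG2, was 0.648 points. It turned to -0.2704 when a new combination needed reads in at least 2 libraries (exact permutation p = 0.507), with other models not limited. Under the same limit the expected number at equal depth turned from 565.2 to -56.43 (exact permutation p = 0.8). The cause was not tested. In the other alternatives run, the 5 comparisons over lines and the exon comparison kept their direction and their side of the threshold after adjustment. The labels number the libraries from 1 within each line. Same-numbered libraries did not deviate together (correlations of -0.049 to 0.079), so the numbers were not taken as pairs. A replicate block gave 236, 88 and 180 models, 1, 0 and 0 genes for class share, and 0, 1 and 1 single models.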
